A study of Mus musculus with 6 samples.

Results

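Glutathione, peroxidase and antioxidant genes were followed as a set of 40 named genes in mouse white adipose tissue, and all 40 were found by symbol among the 22040 genes of the deposited table. The set comprised 5 glutathione peroxidases, 17 glutathione S-transferases, 6 peroxiredoxins, 3 superoxide dismutases with catalase, 4 genes of glutathione synthesis and reduction, the thioredoxin pair Txn1 and Txnrd1, and Hmox1 with Nfe2l2. RNA was sequenced from 3 samples of mice given intraperitoneal ginsenoside Rb1, a ginseng saponin, at 14 mg/kg per day (the Rb1 group), and from 3 samples of mice given intraperitoneal saline (the CTR group). The labels do not give the strain, genotype, age, sex, diet, fat depot or days of treatment. They also do not tie each sample to a mouse of its own, so the p-values below speak only to the variation among these 6 libraries, some of which may be technical.

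Glutathione is a small thiol peptide that cells use to destroy peroxides and to tag reactive lipids for removal. Glutathione peroxidases (Gpx) spend it on peroxides, glutathione S-transferases (Gst) attach it to electrophiles such as the aldehydes of oxidised fat, the ligase Gclc with its partner Gclm and the synthase Gss make it, and Gsr regenerates it with NADPH. Most peroxiredoxins do similar work with electrons from thioredoxin, superoxide dismutases turn superoxide into hydrogen peroxide, and catalase breaks hydrogen peroxide down. The transcription factor NRF2, encoded by Nfe2l2, drives many of these genes when oxidants or electrophiles release it from KEAP1. In fat, Gpx3 is made as a secreted plasma peroxidase and Gsta4 removes lipid aldehydes.

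Total counts lay between 15440339 and 24501446 per library, and all 40 genes passed the expression filter. The tissue label fitted its markers, with the adipocyte gene Adipoq at 1275 to 1672 FPKM (fragment counts scaled to gene length and library total). CTR replicate 2 stood apart through skeletal muscle transcripts, whose 12 listed markers summed to 9205 FPKM there. They summed to 138 and 143 FPKM in CTR replicates 1 and 3, and to 55.9, 14.0 and 40.5 FPKM in Rb1 replicates 1, 2 and 3. Of these 12 markers 10 had Rb1 below all CTR libraries in FPKM, against 10.5% of all genes. The 12 macrophage markers summed to 746 to 983 FPKM in Rb1 and to 1184 to 1563 FPKM in CTR. Erythroid markers summed to 388 to 615 FPKM in Rb1 and 226 to 386 FPKM in CTR, and the sum for liver markers was 55.7 to 78.0 FPKM in Rb1 and 14.1 to 41.3 FPKM in CTR. The liver-defining gene Cps1 was listed at 0 in all 6 libraries, as were the epididymal genes Lcn5, Lcn8 and Gpx5. Crisp1, also epididymal, had 7 counts in CTR replicate 3 and 0 in the other libraries. In bulk tissue, fewer cells of a type and less RNA per cell cannot be told apart.

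Gpx3 and Gsta3 were the members furthest above CTR in relation to their spread, and the GST family leaned the same way, with a median log2 fold change of 0.23. The medians of the peroxiredoxins (-0.07), superoxide dismutases with catalase (0.04) and glutathione synthesis and reduction (0.01) lay near 0. Single members of these 3 families lay on either side, such as Sod1 at 0.27 and Sod3 at -0.22. In edgeR's quasi-likelihood test 0 of the 40 members passed a Benjamini-Hochberg adjusted p of 0.05 over the 14093 genes tested, where 0.0071% of all genes did. At an unadjusted p under 0.05 there were 5 members higher with Rb1, Gsta3, Gpx3, Gstt3, Mgst3 and Gsr, against 4.01% of all genes, and 0 lower, against 7.54% of all genes. DESeq2 called 2 members, Gpx3 and Gsta3, against 2.56% of all genes. Both were higher, as were 0.548% of all genes, and 0 members were lower, as were 2.01% of all genes. The median log2 fold change was 0.11 over the 40 members and 0.01 over all genes tested, and 25 members lay above 0 (23 when libraries were scaled by their totals alone), against 51.3% of all genes. Because the members were picked with earlier results of these data known, these counts beside the shares of all genes are no test of the set.

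**Figure D1:**
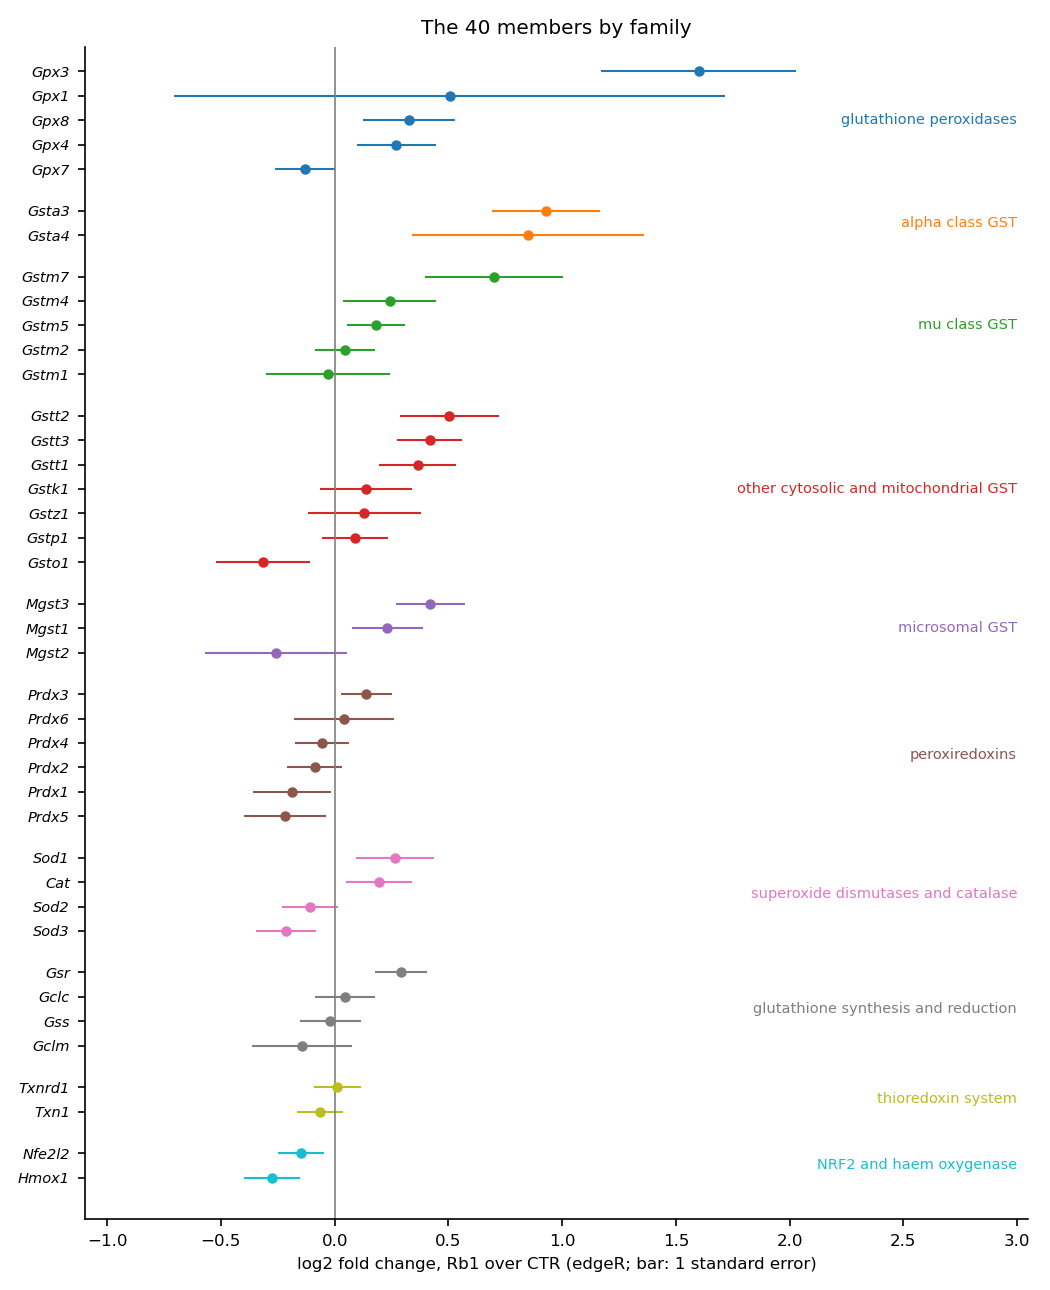
Log2 fold change of each of the 40 genes, Rb1 over CTR, on the horizontal axis, with genes grouped by family and colour, points for the edgeR estimate and bars for 1 standard error (3 libraries per group). Gpx3 lies furthest right at 1.60, Gpx1 has the widest bar with an SE of 1.21, and the peroxiredoxins cluster between -0.22 and 0.14.

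Gpx3, the secreted peroxidase of plasma, stood at 242, 274 and 78.3 FPKM in Rb1 replicates 1, 2 and 3, against 75.8, 55.1 and 70.4 FPKM in CTR replicates 1, 2 and 3. All 3 Rb1 libraries lay above all 3 CTR libraries, but Rb1 replicate 3 did so by a narrow margin and the other 2 Rb1 libraries carried most of the difference. Group means were 198 ± 105 FPKM in Rb1 and 67.1 ± 10.7 FPKM in CTR (SD, n = 3 each). The edgeR log2 fold change was 1.60 (SE 0.43, 95% interval 0.59 to 2.61, unadjusted p = 0.00740, adjusted p = 0.258), and DESeq2 gave an adjusted p of 0.00345. The lowest edgeR estimate with 1 library left out was 1.25, on leaving out Rb1 replicate 2, and the highest was 1.97, on leaving out Rb1 replicate 3. The DESeq2 call was lost without Rb1 replicate 1 (DESeq2 adjusted p = 0.215), Rb1 replicate 2 (0.0832) or the muscle-rich CTR replicate 2 (0.0669). Gpx3 (ENSMUSG00000018339) lies at chr11:54902453-54910377 on the plus strand of GRCm38, shares no exon with another annotated gene, and had 0% of its transcript windows of 50 bases in common with other genes.

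Gsta3, an alpha class transferase, was the other gene on the same side. It stood at 9.08, 5.89 and 5.35 FPKM in Rb1 replicates 1, 2 and 3, against 3.91, 2.69 and 4.30 FPKM in CTR replicates 1, 2 and 3. The groups did not overlap, and Rb1 replicate 1 was the highest library by a wide margin. Group means were 6.78 ± 2.02 FPKM in Rb1 and 3.63 ± 0.841 FPKM in CTR (SD, n = 3 each), with a log2 fold change of 0.93 (SE 0.24, 95% interval 0.37 to 1.49, edgeR unadjusted p = 0.00583, adjusted p = 0.247, DESeq2 adjusted p = 0.0219). The edgeR estimate ran from 0.72 without Rb1 replicate 1 to 1.09 without CTR replicate 3. In DESeq2 the call was lost without Rb1 replicate 1 (DESeq2 adjusted p = 0.118), Rb1 replicate 2 (0.0659), CTR replicate 1 (0.110) or CTR replicate 2 (0.188). Gsta3 (ENSMUSG00000025934) lies at chr1:21240589-21265661 on the plus strand of GRCm38, shares no exon with another gene, and had 0.273% of its windows in common with others. The Rb1 group was also the group with higher sums of liver markers, of which 3 of 6 were expressed enough to test. Those not tested were Apoa1 (at most 0.167 FPKM in any library), Ttr (at most 0.122 FPKM) and Cps1 (0 in all libraries). Most of the mean sum was Cyp2e1, with 53.2 of 65.2 FPKM in Rb1 and 24.2 of 28.5 FPKM in CTR. Of the 3 tested markers, 2 (Cyp2e1 and Alb) had Rb1 above all CTR libraries in FPKM and 1 (Serpina1a) below. Alb had means of 11.2 FPKM in Rb1 and 3.35 FPKM in CTR (edgeR adjusted p = 0.254, DESeq2 adjusted p = 0.00446). The part of such markers in the Gpx3 and Gsta3 values was not tested.

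The bases before the RefSeq transcription start are shown for Gsta3 and Gpx3, the members with the clearest difference, and for Gclm, a textbook NRF2 target whose level is given further on. All starts of members were searched, over 250 bases before each, for the core of the antioxidant response element, TGACNNNGC, at which NRF2 binds with a small Maf partner, and for the GC box GGGCGG, bound by Sp1. Both strands were searched, and capitals mark a match of either motif. The sequences come from RefSeq on GRCm38.p6 and read 5′ to 3′ on the plus strand, at chr1:21240335-21240584 for Gsta3, chr11:54902604-54902771 for Gpx3 and chr3:122245307-122245556 for Gclm. The Gpx3 stretch lies downstream of the first GENCODE start of the gene, given above, and ends where a later GENCODE exon begins, 82 bases before the RefSeq start.
Gsta3: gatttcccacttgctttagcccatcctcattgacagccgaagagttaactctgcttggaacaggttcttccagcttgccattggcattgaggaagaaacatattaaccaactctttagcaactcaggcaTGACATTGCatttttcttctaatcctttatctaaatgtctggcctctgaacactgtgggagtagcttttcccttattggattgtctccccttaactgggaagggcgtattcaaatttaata
Gpx3: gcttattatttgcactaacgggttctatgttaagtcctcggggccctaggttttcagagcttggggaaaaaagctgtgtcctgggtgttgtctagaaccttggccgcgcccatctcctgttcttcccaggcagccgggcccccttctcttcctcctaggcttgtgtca
Gclm: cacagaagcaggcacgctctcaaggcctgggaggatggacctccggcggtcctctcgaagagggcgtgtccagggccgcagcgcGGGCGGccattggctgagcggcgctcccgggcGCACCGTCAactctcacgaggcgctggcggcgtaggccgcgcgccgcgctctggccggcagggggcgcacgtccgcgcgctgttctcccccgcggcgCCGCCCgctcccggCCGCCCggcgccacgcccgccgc
Gsta3 held 1 response element core, beginning at position -121 from the start, and no GC box. The printed stretch of Gpx3 held neither motif, and its unprinted bases held 1 GC box. Gclm held 1 core, at position -134 on the opposite strand, and 3 GC boxes. Neither motif was found in the window of Gpx1. Of the 40 members, 33 matched an entry in the RefSeq table, with 44 start sites in all. The core was found in 9 of those 44 windows, or 20.5%, against 10.2% of all 32851 windows of that length, and the GC box in 27, or 61.4%, against 32.7%. The 27 windows came from 23 genes, since the windows of different starts of 1 gene, some of them overlapping, were counted separately. All 40 members were expressed here, whereas the 32851 windows were not limited to expressed genes. Whether the members differ in either motif from other expressed genes was not tested. The 9 genes with a core were Gclm, Gsta3, Gstm5, Gstm7, Mgst1, Nfe2l2, Prdx1, Sod1 and Txnrd1, of which Gsta3 was among the 5 members under an unadjusted p of 0.05 (Gsr had no entry).

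Gpx1, the cytosolic peroxidase found in most cells, had the largest ratio of highest to lowest library among the 40 members, and varied within both groups. Its levels were 5.74, 73.2 and 79.0 FPKM in Rb1 replicates 1, 2 and 3, against 104, 8.75 and 8.25 FPKM in CTR replicates 1, 2 and 3, from 396, 3857 and 6608 counts in Rb1 and 6817, 702 and 568 counts in CTR. Each group held low and high libraries, with 1 low in Rb1 and 2 low in CTR, and the groups overlapped. The highest level was 18.2 times the lowest, and a range of at least 10 times with overlapping groups was seen in 1.48% of all genes tested, a limit set after Gpx1 was seen. The log2 fold change was 0.50 with an SE of 1.21 and a 95% interval of -2.36 to 3.37 (edgeR adjusted p = 0.913), and DESeq2 gave it no adjusted p. Without CTR replicate 1 the estimate was 2.68, and without CTR replicate 3 it was 0.01. Gpx1 (ENSMUSG00000063856, chr9:108338903-108340343, plus strand) shares no exon or 50-base window with another annotated gene.

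**Figure D2:**
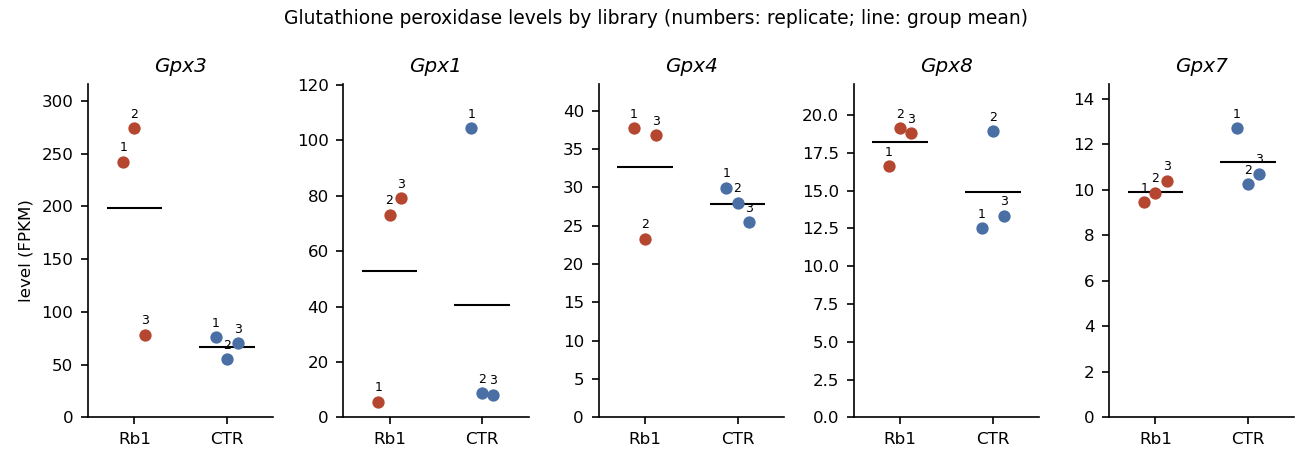
FPKM of the 5 glutathione peroxidase genes in each library, with Rb1 on the left and CTR on the right of every panel, replicate numbers beside the points and a line at the group mean. Gpx3 is high in Rb1 replicates 1 and 2 and near the CTR values in Rb1 replicate 3, and Gpx1 splits into libraries below 9 and above 73 FPKM in both groups.

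The other 3 peroxidases differed by less than the spread between libraries. Gpx4, which reduces lipid hydroperoxides within membranes and restrains ferroptosis, had a log2 fold change of 0.27 (SE 0.17, edgeR adjusted p = 0.616), and 34.7% of its 50-base windows also occur in other transcripts, chiefly the pseudogene Gpx4-ps2, so its count is uncertain. The endoplasmic reticulum enzymes Gpx8 and Gpx7 lay at 0.33 (SE 0.20) and -0.13 (SE 0.13). Summed over the 5 genes, peroxidase levels were 312, 400 and 223 FPKM in Rb1 and 235.5, 121 and 128 FPKM in CTR, which overlapped. Gpx3 made up 77.7%, 68.6% and 35.1% of that sum in Rb1 replicates 1, 2 and 3, against 32.2%, 45.5% and 54.9% in CTR replicates 1, 2 and 3.

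Among the 17 transferases 14 had a log2 fold change above 0, where 51.3% of all genes did, and the median was 0.23, against 0.01 over all genes tested. Gstm2, 1 of the 14, lay at -0.00029 with library totals alone. Cell type markers gave medians of similar size. The median was 0.23 for the 12 adipocyte markers (8 above 0, 4 below) and 0.26 for the 8 endothelial markers (8 above 0, 0 below). It was 0.09 for the preadipocyte and fibroblast markers and -0.84 for the macrophage markers. The part of cell composition in the transferase values was not tested. In FPKM 2 of the 17, Gsta3 and Gstt3, had Rb1 levels above all CTR levels, where 5.48% of all genes did. The members were chosen with earlier results of these data known. Gsta4, the alpha class enzyme that conjugates lipid aldehydes, stood at 3.91, 11.7 and 13.4 FPKM in Rb1 and 3.59, 7.80 and 5.34 FPKM in CTR. The groups overlapped, with Rb1 replicate 1, the library with most Gsta3, nearly as low as the lowest CTR library (log2 fold change 0.85, SE 0.51, edgeR adjusted p = 0.592). Summed, the 2 alpha members came to 13.0, 17.6 and 18.8 FPKM in Rb1, against 7.50, 10.5 and 9.64 FPKM in CTR, with no overlap. Gsta3 supplied 69.9%, 33.5% and 28.5% of that sum in Rb1 replicates 1, 2 and 3, against 52.1%, 25.6% and 44.6% in CTR replicates 1, 2 and 3, which overlapped. Of the alpha class genes outside the members, Gsta2 lay at 0.08 (SE 0.50) with overlapping groups and Gsta1 was too low to test.

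The mu class genes, which lie together on chromosome 3, did not move as a block. Gstm7 stood at 1.33, 2.19 and 2.39 FPKM in Rb1 and 1.09, 1.26 and 1.42 FPKM in CTR, overlapping through Rb1 replicate 1 (log2 fold change 0.70, SE 0.30, edgeR adjusted p = 0.442). Gstm1, the most abundant of the class and a general detoxifying enzyme, stood at 66.3, 58.7 and 46.4 FPKM in Rb1, within the CTR values of 59.2, 38.7 and 81.3 FPKM (log2 fold change -0.03, 95% interval -0.68 to 0.61). Gstm2, Gstm4 and Gstm5 lay between 0.04 and 0.24. Of the windows of Gstm1, 18.9% are shared with relatives such as Gstm3, and exons of Gstm5 overlap 4933431E20Rik on the opposite strand, so these counts are uncertain.

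Theta class genes sat on the higher side together. Gstt3 was at 1.89, 1.85 and 2.08 FPKM in Rb1 and 1.42, 1.54 and 1.52 FPKM in CTR, without overlap and with a small spread (log2 fold change 0.42, SE 0.14, edgeR unadjusted p = 0.0231, adjusted p = 0.344). It shares 12.5% of its windows with other genes, chiefly Gm20441, whose exons overlap it on the same strand. Gstt1 and Gstt2 had log2 fold changes of 0.36 (SE 0.17) and 0.50 (SE 0.22), with overlapping groups. Gstp1, the pi class enzyme, was at 50.4, 49.3 and 60.7 FPKM in Rb1 and 46.9, 55.8 and 52.7 FPKM in CTR (log2 fold change 0.09, 95% interval -0.25 to 0.43), and 33.7% of its windows occur elsewhere, chiefly in Gstp2. Gstz1, an enzyme of tyrosine breakdown whose exons overlap Pomt2, and the mitochondrial and peroxisomal Gstk1 had values of 0.13 and 0.14. Gsto1, the omega class enzyme, had the lowest value of the family, -0.32 (SE 0.21).

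Mgst3, a membrane-bound transferase with peroxidase activity, was the most abundant transferase, at 201, 133 and 178 FPKM in Rb1 and 129, 123 and 140 FPKM in CTR. Its groups overlapped through Rb1 replicate 2 (log2 fold change 0.42, SE 0.15, edgeR unadjusted p = 0.0281, adjusted p = 0.372). Mgst1, its relative in the outer mitochondrial membrane and endoplasmic reticulum, was at 81.2 ± 18.6 FPKM in Rb1 and 70.9 ± 6.32 FPKM in CTR (SD, n = 3 each, log2 fold change 0.23). Mgst2, which can also make leukotrienes, was at 0.881 ± 0.239 FPKM in Rb1 and 1.10 ± 0.409 FPKM in CTR (SD, n = 3 each), with a log2 fold change of -0.26 (SE 0.31). Over all 17 genes the summed transferase level was 606, 488 and 583 FPKM in Rb1 and 502, 445 and 534 FPKM in CTR, which overlapped.

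**Figure D3:**
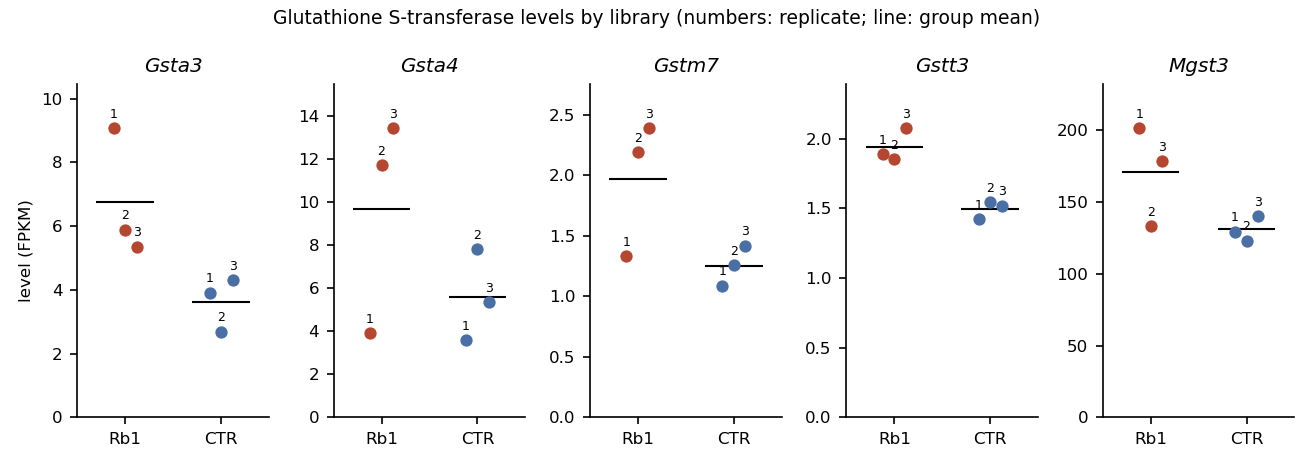
FPKM of 5 transferase genes in each library, with Rb1 on the left and CTR on the right of every panel, replicate numbers beside the points and a line at the group mean. Gsta3 and Gstt3 have no overlap between groups, while Gsta4 and Gstm7 overlap through Rb1 replicate 1 and Mgst3 through Rb1 replicate 2.

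Peroxiredoxins, most of which reduce peroxides with the help of thioredoxin, did not differ beyond their spread. Their log2 fold changes lay between -0.22 (Prdx5) and 0.14 (Prdx3), with a median of -0.07, and 0 of 6 had an unadjusted p under 0.05. Prdx5, the most abundant, stood at 48.3, 30.0 and 43.6 FPKM in Rb1 and 52.7, 41.2 and 51.6 FPKM in CTR, and its exons overlap Trmt112 on the opposite strand. Prdx3, the mitochondrial form, stood at 44.7, 38.1 and 44.7 FPKM in Rb1 and 36.9, 43.1 and 39.0 FPKM in CTR (95% interval of the log2 fold change -0.13 to 0.40). Prdx1, the main cytosolic form, and Prdx2, abundant in red cells, were at -0.19 and -0.09, and 12.0% of the Prdx2 windows are shared, with Junb and Rnaseh2a among the genes that overlap it. Prdx4 of the endoplasmic reticulum and the single-cysteine enzyme Prdx6 were at -0.06 and 0.04. Summed levels were 152 ± 23.2 FPKM in Rb1 and 165 ± 3.09 FPKM in CTR (SD, n = 3 each).

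Cat, Sod1 and Sod3 were the members with the highest mean FPKM, and the superoxide dismutases and catalase had a median log2 fold change of 0.04. Cat, the peroxisomal enzyme, stood at 344, 371 and 372 FPKM in Rb1 and 293, 333 and 352 FPKM in CTR, overlapping through Rb1 replicate 1 (log2 fold change 0.19, 95% interval -0.15 to 0.54). Sod1, the copper and zinc enzyme of the cytosol, was at 341 ± 77.4 FPKM in Rb1 and 293 ± 10.2 FPKM in CTR (SD, n = 3 each, log2 fold change 0.27, SE 0.17), and Sod2, the manganese enzyme of mitochondria, had a value of -0.11 (SE 0.12) with 21.0% of its windows shared. Sod3, the secreted form, stood at 204, 201 and 203 FPKM in Rb1 and 249, 211 and 266.5 FPKM in CTR. In FPKM the Rb1 libraries of Sod3 lay close together and below every CTR library (log2 fold change -0.22, SE 0.13, edgeR adjusted p = 0.605).

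Glutathione synthesis genes lay near 0, and the recycling enzyme Gsr had the largest value of its family, whose median was 0.01 (-0.03 with library totals alone). Gsr stood at 20.5, 14.8 and 15.9 FPKM in Rb1 and 15.6, 13.7 and 13.6 FPKM in CTR, overlapping in FPKM (log2 fold change 0.29, SE 0.12, edgeR unadjusted p = 0.0396, adjusted p = 0.415). Gclc, the catalytic subunit of the rate-limiting ligase, was at 11.6 ± 2.14 FPKM in Rb1 and 11.5 ± 1.47 FPKM in CTR (SD, n = 3 each, 95% interval of the log2 fold change -0.27 to 0.36). Its regulatory partner Gclm lay at -0.14 (95% interval -0.67 to 0.38) and the synthase Gss at -0.02 (95% interval -0.34 to 0.30), each with exons that overlap other genes. Thioredoxin, Txn1, stood at 46.1, 37.2 and 44.1 FPKM in Rb1 and 48.3, 46.9 and 41.9 FPKM in CTR (log2 fold change -0.06, SE 0.10), and its reductase Txnrd1 was at 0.01 (SE 0.10, and -0.03 with library totals alone).

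Nfe2l2 and its target Hmox1, which degrades haem, had the lowest family median, -0.21. Hmox1 stood at 28.4, 24.4 and 29.7 FPKM in Rb1 and 40.4, 32.6 and 30.2 FPKM in CTR (log2 fold change -0.27, SE 0.12, edgeR unadjusted p = 0.0608, adjusted p = 0.460). Nfe2l2 stood at 31.6, 28.0 and 30.0 FPKM in Rb1 and 32.5, 34.0 and 35.4 FPKM in CTR (log2 fold change -0.15, SE 0.10, adjusted p = 0.631). In FPKM both genes were lower in every Rb1 library than in every CTR library by small margins. How many members had groups apart depended on the scale: in FPKM 3 lay above (Gpx3, Gsta3 and Gstt3) and 3 below (Sod3, Hmox1 and Nfe2l2), against 5.48% and 10.5% of all genes. In CPM with edgeR's TMM library sizes (counts scaled to an adjusted library total), 5 lay above, with Gsr and Gstm5 added, and 0 below, against 7.73% and 9.74%. Macrophages express Hmox1 strongly. Of the 12 macrophage markers above, 11 had a log2 fold change below 0, where 51.3% of all genes lay above 0. Among those 11, Mrc1 was near 0 for its error (-0.18, SE 0.32), and the remaining marker, Cd163, lay at 0.23 (SE 0.38). The part of macrophages in the Hmox1 value was not tested.

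Other genes of the pathways were read from 7 lists, and 0 of their tested genes passed over all genes in edgeR in either direction. At an unadjusted p under 0.05, 6 of the lists had 0 to 2 genes higher and 1 or 2 lower, and the list of oxidant sources had 1 higher and 6 lower, beside 4.01% higher and 7.54% lower over all genes. DESeq2 called 4 of the 105 genes tested, or 3.81%, each lower with Rb1, beside 2.01% of all genes called lower. The lists' medians lay between -0.03 and 0.09, against 0.01 over all genes tested. In the KEAP1-NRF2 list 22 genes were tested and 1 had an unadjusted p under 0.05, where 11.6% of all genes did, the haem transporter Slc48a1 (log2 fold change -0.36, SE 0.14), whose exons overlap Hdac7. The next smallest p there was that of the haem oxygenase Hmox2 at -0.32 (SE 0.15), whose exons overlap Cdip1. In the thioredoxin list, Srxn1, an NRF2 target that restores overoxidised peroxiredoxins, was at 11.5, 9.50 and 11.3 FPKM in Rb1 and 16.9, 14.3 and 12.8 FPKM in CTR (log2 fold change -0.40, SE 0.12, edgeR adjusted p = 0.297), with the groups apart. Txnrd3, another thioredoxin reductase, was at 0.39 (SE 0.12, adjusted p = 0.310).

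Genes around glutathione supply were mixed. Anpep, an aminopeptidase that takes part in breaking down extracellular glutathione, stood at 18.4, 21.8 and 20.6 FPKM in Rb1 and 29.4, 28.7 and 29.8 FPKM in CTR, well apart (log2 fold change -0.49, SE 0.12, edgeR adjusted p = 0.247), and DESeq2 called it lower (adjusted p = 0.0311). Oplah, which recycles oxoproline to glutamate, was at 0.21 (SE 0.08, edgeR adjusted p = 0.402), with exons that overlap Exosc4. For NADPH supply, H6pd, the hexose phosphate dehydrogenase of the endoplasmic reticulum, was at 0.51 (SE 0.17) and the folate enzyme Mthfd2 at -0.49 (SE 0.16). In the ferroptosis and selenoprotein list the iron exporter Slc40a1 was at 0.99 (SE 0.31, adjusted p = 0.309) and the transferrin receptor Tfrc at -0.47 (SE 0.12, adjusted p = 0.242), with no call in DESeq2. Of 13 further peroxidase and transferase genes 7 were expressed enough to test, among them the prostaglandin D synthase Hpgds at -0.77 (SE 0.26, adjusted p = 0.340) and the prostaglandin E synthase Ptges at 0.55 (SE 0.20, adjusted p = 0.364).

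Subunits of the phagocyte NADPH oxidase, which makes superoxide that such enzymes remove, held 3 of the 4 DESeq2 calls among these lists. Cybb, the catalytic subunit, stood at 8.65, 10.4 and 9.16 FPKM in Rb1 and 18.9, 21.0 and 15.5 FPKM in CTR (log2 fold change -0.93, SE 0.15, edgeR adjusted p = 0.136, DESeq2 adjusted p = 3.28e-05). The Rb1 libraries of Cybb lay close together and far below the lowest CTR library. DESeq2 also called partners of Cybb. Its membrane partner Cyba was at -0.57 (SE 0.13, edgeR adjusted p = 0.210, DESeq2 adjusted p = 0.0244) and the cytosolic regulator Ncf4 at -0.81 (SE 0.18, edgeR adjusted p = 0.201, DESeq2 adjusted p = 0.0241). DESeq2 called 3 of the 16 tested oxidant sources lower, against 2.01% of all genes, and 0 higher, against 0.548%. The list did not fall as a whole: 8 of the 16 had a log2 fold change above 0, the highest being 0.77. Summed over the 18 listed genes, levels were 751, 830 and 790 FPKM in Rb1 and 631, 656 and 731 FPKM in CTR. Of the 12 macrophage markers 8 had Rb1 below all CTR libraries in FPKM, against 10.5% of all genes, the lowest log2 fold change among them being -1.55, and their part in the oxidase values was not tested.

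**Figure D4:**
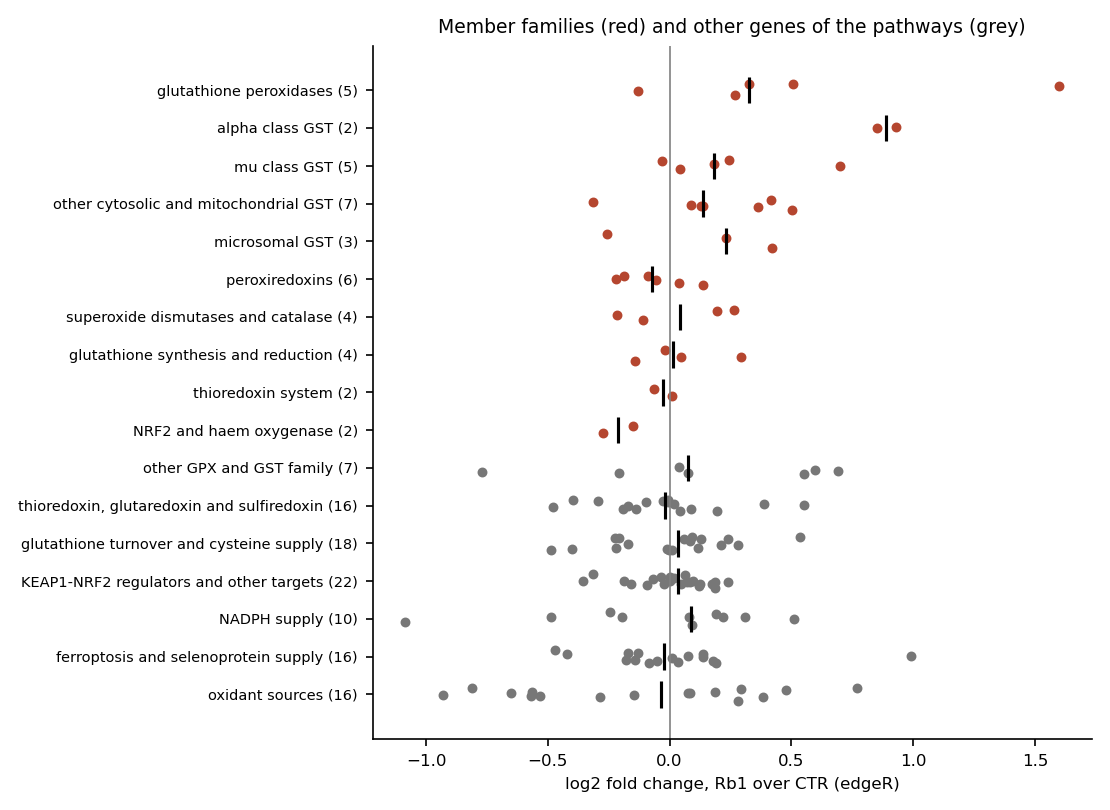
EdgeR log2 fold change, Rb1 over CTR, of the tested genes (points) and the median (black line) of each member family in red and each further pathway list in grey, with the number of tested genes in brackets. Family medians run from -0.21 for Nfe2l2 with Hmox1 to 0.89 for the 2 alpha class members, and the list medians stay between -0.03 and 0.09.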

How the data were processed

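RNA sequencing counts came from 3 Rb1 and 3 CTR samples. Per the file headers, the authors deposited raw counts and FPKM side by side for each Ensembl gene. CASAVA 1.8, TopHat2 2.0.6 and the build mm10 appear in the submitters' processing notes. No source used here states the counting tool, its annotation or its strand setting, so overlapping genes and near-identical copies cannot be told apart. FPKM equalled the count divided by a length and the library total, within 0.00984% over 13169 genes, and was used for levels. Total counts of 15440339 to 24501446 set the precision.

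Counts were tested with edgeR 4.0.16 in R 4.3.3: TMM, the default filter (minimum count 10, minimum total 15), quasi-likelihood test, no covariates, Benjamini-Hochberg over 14093 genes. The biological coefficient of variation was 24.8%. Standard errors came from the F statistic. DESeq2 1.42.0 was the alternative tool. The scripts were tested on simulated data. Replicate numbers of the labels were not used as pairs. The members and lists were chosen with earlier results of these data known. Libraries are given for Gpx3, Gsta3, the most abundant member and the member with the smallest p of each family, and the 6 members with the smallest p; Gpx1 was added after its values were seen. Of each further list the 2 genes with the smallest p and any called gene are named, and Gsta1 and Gsta2 were added beside the alpha members. Coordinates follow GENCODE M21 (GRCm38, the same assembly as mm10). Protein sequences are not used here. No pair of libraries agreed within sampling noise (chi-square per degree of freedom at least 30.38).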

Additional observations from a re-analysis of the deposited data

How the results depend on the processing

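DESeq2 in place of edgeR called 374 genes in all (edgeR 1) and 2 of the 40 members, Gpx3 and Gsta3 (edgeR 0). With RLE size factors, library totals, no expression filter or the replicate block, edgeR called 1 gene and 0 members. Leaving out 1 library at a time gave 1 to 4 genes in all and 0 to 0 members in edgeR. In DESeq2, an alternative chosen after seeing the data, it gave 0 to 3 members: Gpx3 kept its call without Rb1 replicate 3, CTR replicate 1 or CTR replicate 3, and Gsta3 without Rb1 replicate 3 or CTR replicate 3, while Gsta4 was called without Rb1 replicate 1, Gpx4 and Mgst3 without Rb1 replicate 2, and Gstt1 without CTR replicate 3. Leaving out 1 library moved the median log2 fold change of the peroxidases between 0.15 and 0.43, of the other cytosolic and mitochondrial transferases between 0.0028 and 0.34, of the microsomal transferases between 0.099 and 0.36, and of the mu class between 0.12 and 0.28. The medians of the peroxiredoxins (-0.14 to 0.0088), the superoxide dismutases with catalase (-0.056 to 0.068), glutathione synthesis and reduction (-0.081 to 0.10) and the thioredoxin pair (-0.072 to 0.0091) changed sign. Those of all 17 transferases (0.17 to 0.33), the alpha class (0.78 to 0.98) and Nfe2l2 with Hmox1 (-0.26 to -0.17) did not. Single values near 0 changed sign: Gstm1 lay at 0.031 with the replicate block, and with library totals alone Gstm2 lay at -0.00029 and Txnrd1 at -0.028. Without 1 library the ranges crossing 0 were -0.26 to 0.28 for Gstm1, -0.066 to 0.10 for Gstm2, -0.036 to 0.17 for Gstp1, -0.12 to 0.36 for Gstz1, -0.50 to 0.041 for Mgst2, -0.17 to 0.0085 for Prdx2, -0.095 to 0.0091 for Prdx4, -0.14 to 0.26 for Prdx6, -0.058 to 0.13 for Gclc, -0.27 to 0.14 for Gclm, -0.10 to 0.076 for Gss and -0.050 to 0.076 for Txnrd1. The causes were not tested. The labels do not say that equal numbers share an animal or day, so the numbers were not taken as pairs. Deviations from the group means correlated at 0.136, -0.109 and 0.018 between same-numbered samples. Between unmatched numbers the correlations ran from -0.265 to 0.262, and with 3 libraries a group they cannot settle whether samples were paired. With the replicate block 9 members had an edgeR unadjusted p under 0.05 higher and 1 lower, where 3.68% and 6.93% of all genes did. With 3 libraries a group, a count of 0 members in edgeR does not show that the members did not differ.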

Other observations

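Sesn3, a stress-inducible sestrin named here after its values were seen, stood at 9.87, 1.46 and 1.08 FPKM in Rb1 replicates 1, 2 and 3, against 1.93, 7.27 and 7.70 FPKM in CTR replicates 1, 2 and 3. It was high in Rb1 replicate 1 and CTR replicates 2 and 3, the libraries in which Gpx1 was low, and its groups overlapped (edgeR log2 fold change -0.48, SE 0.88, adjusted p = 0.886). Txnip, which binds and inhibits thioredoxin and was likewise picked from its values, stood at 273, 251 and 232 FPKM in Rb1 and 128, 194 and 205 FPKM in CTR, with the groups apart (log2 fold change 0.55, SE 0.21, edgeR adjusted p = 0.402).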
